A study of Homo sapiens with 21 samples.

Results

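The aryl hydrocarbon receptor, its dimer partner, its repressors and some genes listed as its direct targets were followed over 7 doses of coumarin in cells labelled HepG2. The set was taken by gene name and holds AHR, ARNT, AHRR, TIPARP, CYP1A1, CYP1B1, ALDH3A1 and TNFAIP2, which are 8 of the 58735 genes in the count table. All 8 had reads in each of the 21 libraries and passed the filter on low counts that left 16196 genes for testing. At 100 µM coumarin, 4 of the 8 were lower than in untreated cells (TIPARP, TNFAIP2, AHRR and CYP1B1), where 4.82% of all genes tested were, and none was called higher. The 8 genes were chosen with earlier results of these data known, so this count beside that share is descriptive and tests no excess.

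HepG2 is an established human line that came from a tumour of the liver, and coumarin is a plant compound used as a fragrance. Cells were kept for 6 h in serum-free DMEM with coumarin at 0.001, 0.01, 0.1, 1, 10 or 100 µM. The untreated group (0 µM) had the same medium without coumarin, so every group shared the change to medium without serum. Each group had 3 libraries, which the design text calls biological replicates without saying that they were separate cultures, so p-values measure the spread between these samples.

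The aryl hydrocarbon receptor is a transcription factor that rests in the cytosol with HSP90 and other chaperones. When it binds a planar aromatic ligand it enters the nucleus, pairs with ARNT and binds DNA elements built on the core GCGTG, from which it raises transcription of detoxifying enzymes such as CYP1A1. AHRR and TIPARP, which are themselves receptor targets, restrain it: AHRR competes for ARNT, and TIPARP (also called PARP7) attaches ADP-ribose to the receptor and lowers its activity. In liver cells the pathway is known mainly for inducing the CYP1 enzymes.

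The sequences shown are promoter windows, because the receptor acts through its core motif in DNA. RefSeq promoter windows of 300 bases (GRCh38.p14, 250 bases before a start site to 50 after it) matched 6 of the 8 gene symbols, with 9 windows. CYP1B1 and ALDH3A1 were not matched. One window each is printed for the target used most as a marker of receptor activity (CYP1A1), for both repressors and for TNFAIP2, 5′ to 3′ on the gene's strand. Capitals mark GCGTG, or CACGC where the motif lies on the opposite strand.
CYP1A1 promoter, chr15:74725479-74725778, minus strand: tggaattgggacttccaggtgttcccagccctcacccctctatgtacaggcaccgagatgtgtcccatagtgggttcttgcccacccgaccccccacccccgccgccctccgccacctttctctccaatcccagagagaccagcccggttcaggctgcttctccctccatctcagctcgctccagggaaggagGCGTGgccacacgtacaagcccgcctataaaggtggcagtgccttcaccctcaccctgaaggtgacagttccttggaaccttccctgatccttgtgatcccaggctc
TIPARP promoter, chr3:156674340-156674639, plus strand: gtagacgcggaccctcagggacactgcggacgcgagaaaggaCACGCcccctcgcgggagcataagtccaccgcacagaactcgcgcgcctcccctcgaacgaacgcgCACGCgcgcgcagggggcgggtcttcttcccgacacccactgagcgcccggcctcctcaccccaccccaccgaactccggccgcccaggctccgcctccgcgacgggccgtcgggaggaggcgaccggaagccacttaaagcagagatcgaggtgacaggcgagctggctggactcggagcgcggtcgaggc
AHRR promoter, chr5:321464-321763, plus strand: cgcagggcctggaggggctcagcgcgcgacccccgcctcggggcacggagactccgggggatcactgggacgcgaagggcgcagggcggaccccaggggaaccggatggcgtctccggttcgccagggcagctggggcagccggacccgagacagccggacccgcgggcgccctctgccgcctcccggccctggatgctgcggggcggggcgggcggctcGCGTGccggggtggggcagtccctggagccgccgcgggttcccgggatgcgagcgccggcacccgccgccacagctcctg
TNFAIP2 promoter, chr14:103123211-103123510, plus strand: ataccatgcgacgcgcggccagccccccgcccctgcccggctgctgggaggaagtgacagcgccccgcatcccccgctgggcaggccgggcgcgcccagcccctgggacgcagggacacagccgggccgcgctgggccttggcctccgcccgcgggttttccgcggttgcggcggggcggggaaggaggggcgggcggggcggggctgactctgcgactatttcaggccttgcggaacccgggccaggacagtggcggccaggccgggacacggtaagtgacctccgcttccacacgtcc

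GCGTG was searched on both strands. Counting the start site as base 1 and the base before it as -1, the match in the CYP1A1 window began at -57. The TIPARP window held 2 matches, at -208 and -142, and the other 2 TIPARP windows held none. The AHRR window held 1 match at -30, which was also the only member match to the longer form TNGCGTG, of which GCGTG is a part. A further AHRR window (chr5:322360-322659) held 2, at -247 and -42, the AHR window (chr7:17298402-17298701) held 1 at 38, and the ARNT and TNFAIP2 windows held none. Of all 35116 promoter windows of this length, 36.5% held GCGTG and 5.51% held TNGCGTG, so these matches only describe the letters present. Sequence outside the windows was not searched, and whether the receptor acts through any of these matches was not tested.

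Total counts were 27984517 to 43704155 per library, at which 3 counts correspond to 0.0686 to 0.107 CPM (counts scaled to the library total; this limit covers counting error only). Between 5.61% and 6.63% of counts fell on mitochondrial transcripts. Replicates differed by more than sampling noise in all 21 pairs, with a chi-square of 2.68 to 12.2 per degree of freedom. The cell label was checked against 14 hepatocyte genes. None reached 1 CPM, ALB (serum albumin), SERPINA1 and FGB had 0 reads in all 21 libraries, and the summed level of all 14 was 0.0569 to 0.204 CPM at 100 µM and 0.0551 to 0.07 CPM at 0 µM. The data thus go against the hepatocyte character that the label implies, so the label itself is in doubt. The cells are called by their label here, and their identity was not tested further. Of 8 epithelial genes 4 reached 1 CPM and EPCAM had 0 reads, with a summed level of 4045 to 4168 CPM at 100 µM and 4230 to 4586 CPM at 0 µM. Of 8 mesenchymal genes 7 reached 1 CPM, COL1A2 had 1 read in all, and the sum was 1662 to 1718 CPM at 100 µM and 1723 to 1775 CPM at 0 µM. Both sums were lower in every 100 µM library than in every untreated library, and their part in the results below was not tested.

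Levels were compared between genes per length, as the authors' FPKM (fragments scaled by gene length and library size). AHRR stood highest, with a median of 22.2 FPKM over the 21 libraries and a range of 18.3 to 25.3 FPKM. TIPARP followed with a median of 13.4 FPKM and ARNT with 9.68 FPKM. TNFAIP2 had 5.81 FPKM, ALDH3A1 3.08 FPKM and AHR itself 1.70 FPKM. The CYP1 enzymes were lowest, CYP1B1 with a median of 0.882 FPKM and CYP1A1 with 0.182 FPKM. In this order the ranges over 21 libraries overlapped only between TIPARP and ARNT. TIPARP averaged 9.90 ± 0.128 FPKM and ARNT 10.2 ± 0.439 FPKM at 100 µM, against 13.6 ± 0.719 FPKM and 9.58 ± 0.318 FPKM in untreated cells (SD, n = 3 each). By these values the repressor transcript was more abundant per length than the receptor's in every library. The ratio of AHRR to AHR FPKM was 11.6 ± 0.828 at 100 µM and 13.7 ± 0.887 at 0 µM (SD, n = 3 each). Of the 8081 exonic bases of AHR, 2373 are shared with AC019117.2 on the same strand. How reads in shared bases were counted is not known, so the level of AHR and this ratio are uncertain to that extent.

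**Figure D1:**
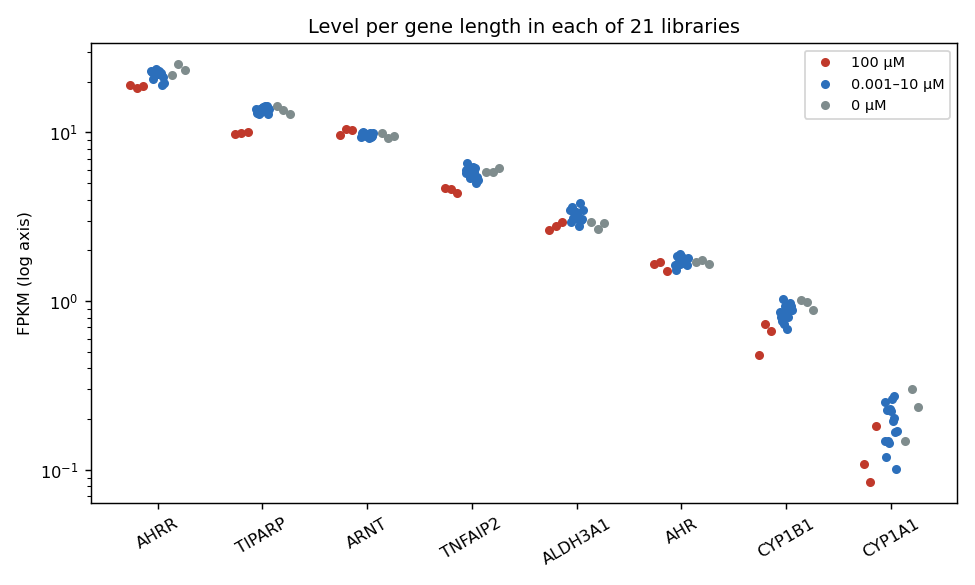
Level of the 8 genes in FPKM (log axis) in each of 21 libraries, with 100 µM at the left of each gene in red, 0.001 to 10 µM in blue and 0 µM in grey; each point is a library. AHRR had the highest median (22.2 FPKM) and CYP1A1 the lowest (0.182 FPKM), and the red points of TIPARP, 9.75 to 10.0 FPKM, lie below all its other points.

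The receptor and its partner did not pass the test at any dose. AHR (chr7:16916359-17346152, plus strand) had 13.06, 13.47 and 12.02 CPM in the libraries at 100 µM, against 13.44, 13.97 and 13.1 CPM in untreated cells. These groups overlapped, and the log2 fold change was -0.07 (95% interval -0.22 to 0.08). ARNT (chr1:150809705-150876768, minus strand), the partner without which the receptor does not bind its DNA element, had 61.6, 67.3 and 65.7 CPM at 100 µM and 62.7, 59.5 and 60.5 CPM at 0 µM. Of the 100 µM libraries 2 lay above all untreated ones and 1 lay among them, with a log2 fold change of 0.09 (95% interval 0.01 to 0.18) and an adjusted p of 0.178 from edgeR's quasi-likelihood test with Benjamini-Hochberg adjustment over 16196 genes, the test used throughout. A gene is called where this adjusted p is under 0.05, and CPM in the comparisons carry edgeR's TMM scaling of library totals. AHR shares 270 exonic bases with the antisense gene AC073332.1, which had 178 reads in all, and 2373 with AC019117.2 on its own strand, listed at 0 reads. No source used here says whether the counting used strand.

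TIPARP fell at 100 µM and at no lower dose. The gene (chr3:156673235-156706770, plus strand) had 48.1, 49.4 and 49.4 CPM at 100 µM, against 69.9, 67.4 and 63.3 CPM in untreated cells. At 10 µM it had 70.1, 63.2 and 67.1 CPM. All 18 libraries at 0 to 10 µM lay between 63.2 and 70.6 CPM, so that the 100 µM libraries stood below every other library. Its group means were 66.9, 65.8, 65.5, 67.4, 68.9, 66.8 and 48.9 CPM from 0 to 100 µM. Relative to untreated cells the log2 fold change at 100 µM was -0.45 ± 0.05 (SE; adjusted p = 2.94e-08), a level 0.732 times that of untreated cells. At 10 µM it was 0.00 (95% interval -0.10 to 0.09). In these bulk libraries, fewer cells expressing a gene and less RNA per cell cannot be told apart. TIPARP-AS1 on the opposite strand shares 37 exonic bases and had 293 reads in all, against 4890 reads of TIPARP in the 3 libraries at 100 µM alone.

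AHRR fell at 10 µM and at 100 µM. The gene (chr5:304176-438291, plus strand) had 144, 137.6 and 141.6 CPM at 100 µM, against 162, 190.7 and 174.4 CPM in untreated cells, with no overlap. At 10 µM it had 141.5, 159.6 and 145.9 CPM, also below all 3 untreated libraries and overlapping the 100 µM libraries. Between 0.001 and 1 µM its group means were 165 to 172 CPM. The log2 fold change was -0.32 ± 0.05 at 100 µM (SE; adjusted p = 9.02e-05) and -0.24 ± 0.05 at 10 µM (SE; adjusted p = 0.0271). The call at 10 µM was lost on leaving out the second untreated library, the highest of the set (log2 fold change -0.175, adjusted p = 0.292), untreated library 3 (-0.239, 0.0554), or 10 µM library 1 or 3 (-0.203 and -0.219, adjusted p = 0.149 and 0.166). AHRR shares its strand and 244 exonic bases with PDCD6, a calcium-binding protein gene that averaged 195 ± 2.52 CPM at 100 µM and 191 ± 0.942 CPM at 0 µM (SD, n = 3 each). The pseudogene AC010442.2, in an intron of AHRR on the same strand, had 2001 reads in all.

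**Figure D2:**
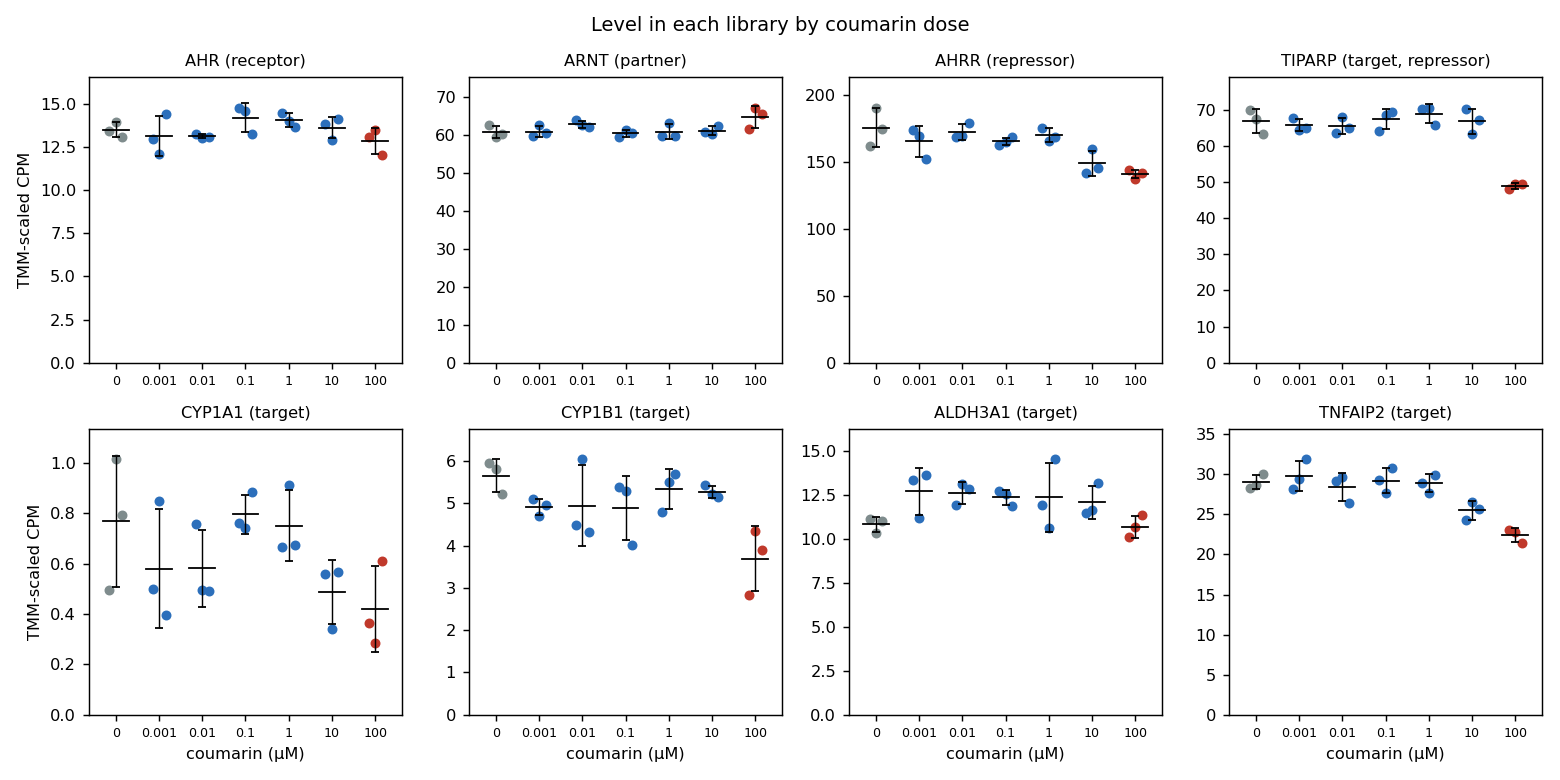
TMM-scaled CPM of the 8 genes in each library by coumarin dose (µM, low to high), each panel from 0; points are libraries, long bars group means and whiskers the SD (n = 3). TIPARP stands at 48.1 to 49.4 CPM at 100 µM and at 63.2 to 70.6 CPM in all other libraries, while TNFAIP2 stands at 24.3 to 26.6 CPM and AHRR at 141.5 to 159.6 CPM at 10 µM, below the untreated libraries of the same gene.

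CYP1A1 was close to the limit of detection. The enzyme (chr15:74719542-74725610, minus strand) oxidises aromatic hydrocarbons and is the most used marker of receptor activity. It had 459 reads in the 21 libraries together. At 100 µM it had 0.363, 0.284 and 0.611 CPM (11, 10 and 21 reads), against 0.496, 1.02 and 0.795 CPM in untreated cells (18, 29 and 27 reads). The groups overlapped, and the log2 fold change of -0.84 (95% interval -1.54 to -0.14, adjusted p = 0.124) was not called. It was called at no dose, and at 10 µM the log2 fold change was -0.61 (95% interval -1.29 to 0.07). The interval at 100 µM lies below 0 and includes the log2 fold change of TIPARP at that dose, -0.45. Unlike the adjusted p, it makes no allowance for the number of genes tested.

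CYP1B1 fell at 100 µM. This relative of CYP1A1 (chr2:38066973-38109902, minus strand) metabolises oestrogens and aromatic hydrocarbons. It had 2.84, 4.35 and 3.90 CPM at 100 µM, against 5.95, 5.81 and 5.21 CPM in untreated cells. These groups did not overlap, whereas single libraries at 0.01 µM (4.33 CPM) and 0.1 µM (4.02 CPM) lay within the 100 µM range. The log2 fold change was -0.61 ± 0.14 (SE; adjusted p = 0.00394). Without the first 100 µM library, its lowest, the log2 fold change was -0.45 and the adjusted p 0.064. CYP1B1-AS1 and RMDN2 on the opposite strand share 678 and 96 exonic bases with CYP1B1 and had 322 and 2741 reads in all. RMDN2 averaged 3.21 ± 0.516 CPM at 100 µM and 4.17 ± 0.198 CPM at 0 µM (SD, n = 3 each), and its part in the CYP1B1 result was not tested.

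ALDH3A1 at 100 µM stood at the untreated level. The gene (chr17:19737984-19748943, minus strand) encodes an aldehyde dehydrogenase of the cornea and stomach that the receptor can induce in tumour cells. It had 10.09, 10.69 and 11.35 CPM at 100 µM and 11.13, 10.36 and 11.04 CPM at 0 µM, fully overlapping, with a log2 fold change of -0.02 (95% interval -0.21 to 0.17). Its means at the lower doses were 12.7, 12.6, 12.4, 12.4 and 12.1 CPM from 0.001 to 10 µM. None of these was called against untreated cells, with log2 fold changes of 0.16 to 0.23. The antisense gene AC005722.3 shares 98 exonic bases with ALDH3A1 and had 2 reads in all.

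TNFAIP2 fell at 100 µM and was intermediate at 10 µM. The gene (chr14:103123442-103137439, plus strand) was named for its induction by tumour necrosis factor, and its protein takes part in forming thin membrane bridges between cells. It had 23.1, 22.8 and 21.4 CPM at 100 µM, against 28.3, 28.7 and 30.1 CPM in untreated cells. At 10 µM it had 24.3, 26.6 and 25.7 CPM, above all 100 µM libraries and below all untreated ones. The group means between 0.001 and 1 µM were 28.4 to 29.8 CPM. The log2 fold change was -0.37 ± 0.06 at 100 µM (SE; adjusted p = 6.02e-05), and at 10 µM it was -0.19 (95% interval -0.31 to -0.07, adjusted p = 0.17), which was not called. The annotation places no other gene on TNFAIP2 or on CYP1A1.

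Counted together at 100 µM against untreated cells, 4 of the 8 genes were called lower, where 4.82% of all genes tested were lower and 8.58% were called in either direction. The median log2 fold change of the 8 was -0.34, against 0.00 over all genes. Because the 8 were chosen with earlier results of these data known, such counts and medians, here and below, are descriptive. At 10 µM only AHRR was called, where 0.0803% of all genes were called lower and 0.321% in either direction, and the median of the 8 was -0.05. At 0.001, 0.01, 0.1 and 1 µM none of the 8 was called in edgeR's test, and 0% of all genes were. At these doses 1330, 1415, 987 and 609 of the 16196 genes had an unadjusted p under 0.05, of which the only members were ALDH3A1 at 0.001, 0.01 and 0.1 µM. DESeq2 called none of the 8 at these doses.

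Comparisons within treated cells set no untreated level against a treated one, although the untreated libraries entered the filter, the scaling and the shared estimate of spread. Between 100 µM and 10 µM, TIPARP differed by a log2 fold change of -0.45 (adjusted p = 5.42e-08) and CYP1B1 by -0.50 (adjusted p = 0.0299), where 2.51% of all genes were called lower, 2.03% higher and 4.53% in either direction. AHRR differed by -0.08 (95% interval -0.18 to 0.03) and TNFAIP2 by -0.19 (adjusted p = 0.0699), neither called. The call of CYP1B1 was lost on leaving out any 1 of the 10 µM libraries (adjusted p = 0.118, 0.0553 and 0.0726), or 100 µM library 1 or 3 (adjusted p = 0.229 and 0.0661).

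Against the mean of the 4 doses from 0.001 to 1 µM, 5 of the 8 were called lower at 100 µM, where 5.58% of all genes were lower, 4.25% higher and 9.83% called in either direction. TIPARP had a log2 fold change of -0.45 (adjusted p = 1.32e-10), TNFAIP2 -0.38 (adjusted p = 8.52e-07) and AHRR -0.26 (adjusted p = 5.43e-05). CYP1B1 had -0.43 (adjusted p = 0.00936), which became -0.28 (adjusted p = 0.201) without the first 100 µM library. ALDH3A1 was the fifth, with -0.22 and an adjusted p of 0.0463, and was called under 13 of the 29 alternatives run for this comparison. By limma on log2 of FPKM plus 1 or 0.1 it was not called (adjusted p = 0.0812 and 0.077). Nor was it called by edgeR with a filter of at least 1 CPM in 3 libraries (adjusted p = 0.0521). Its call was lost on leaving out any 1 of 13 libraries, which were untreated 1 and 3, 0.001 µM 1 and 3, 0.01 µM 2 and 3, 0.1 µM 2, 1 µM 1 and 3, 10 µM 2 and all 3 at 100 µM, with log2 fold changes of -0.27 to -0.18 and adjusted p of 0.0507 to 0.26.

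Over the 6 treated doses, a straight line of level on log10 dose was fitted as a further measure. The slope was -0.07 for TNFAIP2 (log2 units per 10-fold step in dose; adjusted p = 5.02e-06), -0.06 for TIPARP (adjusted p = 6.27e-06) and -0.05 for AHRR (adjusted p = 2.84e-04). These were 3 of the 8, where 2.52% of all genes had a called negative slope, 1.93% a positive one and 4.45% either. TIPARP's means were level up to 10 µM, so a straight line describes its pattern less directly than that of TNFAIP2.

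**Figure D3:**
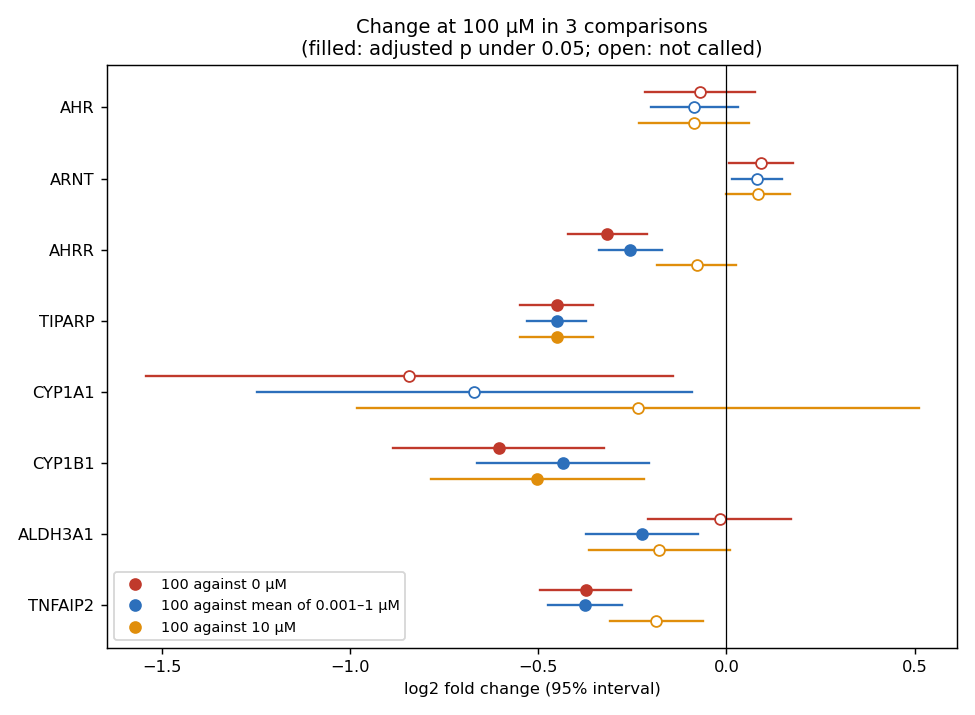
Log2 fold change (x axis, points) and 95% interval (lines) of the 8 genes at 100 µM against 0 µM in red, against the mean of 0.001 to 1 µM in blue and against 10 µM in orange; filled points were called. TIPARP has -0.45 in all 3 comparisons, whereas AHRR has -0.32 against 0 µM and -0.08 against 10 µM.

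Other genes known as receptor targets did not move in one direction. Of 24 listed, 15 had enough counts to be tested, and at 100 µM against untreated cells 5 were called lower and 2 higher, with a median log2 fold change of -0.05 (0.00 over all genes). Over all genes 4.82% were lower and 3.77% higher. ALDH1A3, which makes retinoic acid from retinal, averaged 37.7 ± 1.16 CPM at 100 µM and 48.9 ± 1.09 CPM at 0 µM (SD, n = 3 each), a log2 fold change of -0.37 (adjusted p = 5.06e-07). AC015712.2 on its opposite strand shares 1585 exonic bases and had 3005 reads, against 33938 for ALDH1A3. NEDD9, a scaffold protein of cell adhesion, had -0.26 (adjusted p = 3.71e-05) and VAV3 -0.24 (adjusted p = 1.32e-04). The drug efflux pump ABCG2 had -0.39 (adjusted p = 0.00512) and the quinone reductase NQO1 -0.13 (adjusted p = 0.0285).

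STC2, a secreted glycoprotein gene that is also a target of the stress factor ATF4, went the other way. It averaged 99.9 ± 2.22 CPM at 100 µM, against 44.2 ± 0.612 CPM in untreated cells (SD, n = 3 each), a log2 fold change of 1.18 (adjusted p = 1.52e-17). At 10 µM it was already higher, with a log2 fold change of 0.47 (adjusted p = 5.44e-06). SLC7A5, a large neutral amino acid transporter, had 0.24 at 100 µM (adjusted p = 1.62e-04). CYP1A2, the liver-specific CYP1 enzyme, had 1 read and UGT1A6, a glucuronosyltransferase, 8 reads in all 21 libraries, and neither was tested.

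**Figure D4:**
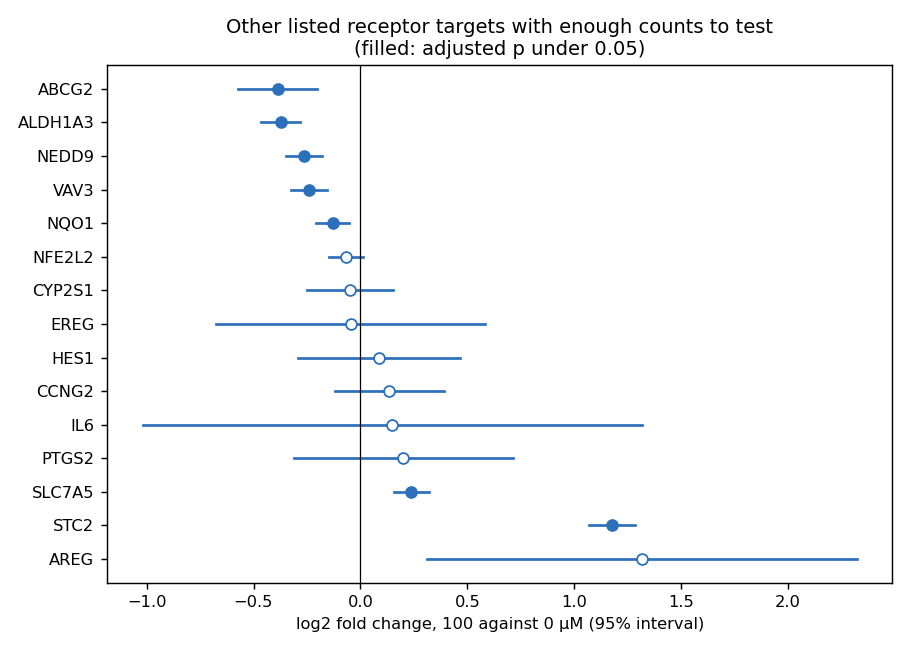
Log2 fold change at 100 µM against 0 µM (x axis, points) with its 95% interval (lines) for the 15 other listed receptor targets with enough counts; filled points were called. STC2 stands at 1.18 and SLC7A5 at 0.24, while ABCG2, ALDH1A3, NEDD9, VAV3 and NQO1 lie between -0.39 and -0.13.

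The proteins that hold, degrade or assist the receptor were described in 3 lists, beside 4.82% of all genes called lower and 3.77% called higher at 100 µM against 0 µM. None of the 7 genes of the cytosolic complex was called at 100 µM against 0 µM. The chaperone gene HSP90AA1 had -0.11 (adjusted p = 0.114). Of 4 genes of the ubiquitin ligase that the receptor joins, CUL4B, its scaffold, was called lower at -0.15 (adjusted p = 0.0462). Of 12 coregulators 3 were lower and 1 higher, with a median log2 fold change of -0.02 (0.00 over all genes). NRIP1, a corepressor of nuclear receptors, had the smallest p with -0.41 (adjusted p = 9.77e-04), averaging 42.7 ± 3.41 CPM at 100 µM and 56.7 ± 2.82 CPM at 0 µM (SD, n = 3 each). RB1 and NCOA2 were called lower at -0.17 and -0.18, and the acetyltransferase gene CREBBP was called higher at 0.16.

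Of 10 tested relatives in the bHLH-PAS family, to which AHR, ARNT and AHRR belong, 3 were lower and 1 higher at 100 µM, where 4.82% of all genes were lower and 3.77% higher, and the median log2 fold change was -0.13 (0.00 over all genes). HIF1A, the hypoxia-inducible factor that also pairs with ARNT, had a log2 fold change of -0.24 (adjusted p = 6.02e-05). Its relative EPAS1 had 0.21 (adjusted p = 0.00152). Of the clock genes NPAS2 had -0.38 (adjusted p = 0.00584) and CLOCK -0.21 (adjusted p = 0.0309). CLOCK shares 76 exonic bases on the opposite strand with TMEM165, which had 56478 reads against 19270 for CLOCK.

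The genes whose group means followed TIPARP and TNFAIP2 most closely were taken from the 1434 genes that averaged 1 or more in log2 CPM and whose group means spanned 0.3 or more. Likeness was Pearson's r over the 7 group means, which for all genes come from the same libraries. Genes picked in this way share the dose pattern by selection. Their fold changes and calls below describe the genes picked and are not separate support for the pattern. The 5 nearest to TIPARP were WNT7B (r = 0.994), PLCXD2 (0.986), NPAS2 (0.984), KRT80 (0.984) and SPOCK2 (0.983). All of these had log2 fold changes between -0.07 and 0.04 at 10 µM and between -0.62 and -0.28 at 100 µM against 0 µM. PLCXD2 shares 322 exonic bases on its own strand with PHLDB2. The 5 nearest to TNFAIP2 were TNS4 (r = 0.994), ELF3 (0.985), TNFSF15 (0.979), BCL3 (0.977) and VSIR (0.977). They had -0.46 to -0.20 at 10 µM and -1.24 to -0.48 at 100 µM. Of these 5 genes ELF3 and VSIR were called at 10 µM, where 0.0803% of all genes were called lower. ELF3, an epithelial transcription factor gene, averaged 14.2 ± 0.694 CPM at 100 µM and 25.1 ± 0.791 CPM at 0 µM (SD, n = 3 each), with a log2 fold change of -0.83 (adjusted p = 1.35e-10). It is 1 of 2 epithelial markers called lower at 100 µM against 0 µM, of 6 tested, where 4.82% of all genes were lower. The other was KRT18 at -0.20 (adjusted p = 5.11e-04). CLDN4 (-1.93, adjusted p = 0.0557), KRT8 (-0.10, 0.0973), KRT7 (-0.06, 0.43) and CDH1 (-0.05, 0.942) were not called against 0 µM. At 100 µM against the mean of 0.001 to 1 µM, 5 of the 6 were called lower (5.58% of all genes). Over the treated doses 4 of the 6 had a called negative slope (2.52% of all genes). KRT18 shares 525 exonic bases with KRT8 on the opposite strand. ELF3 shares 664 with ELF3-AS1 on the opposite strand, which had 2351 reads against 17226 for ELF3.

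**Figure D5:**
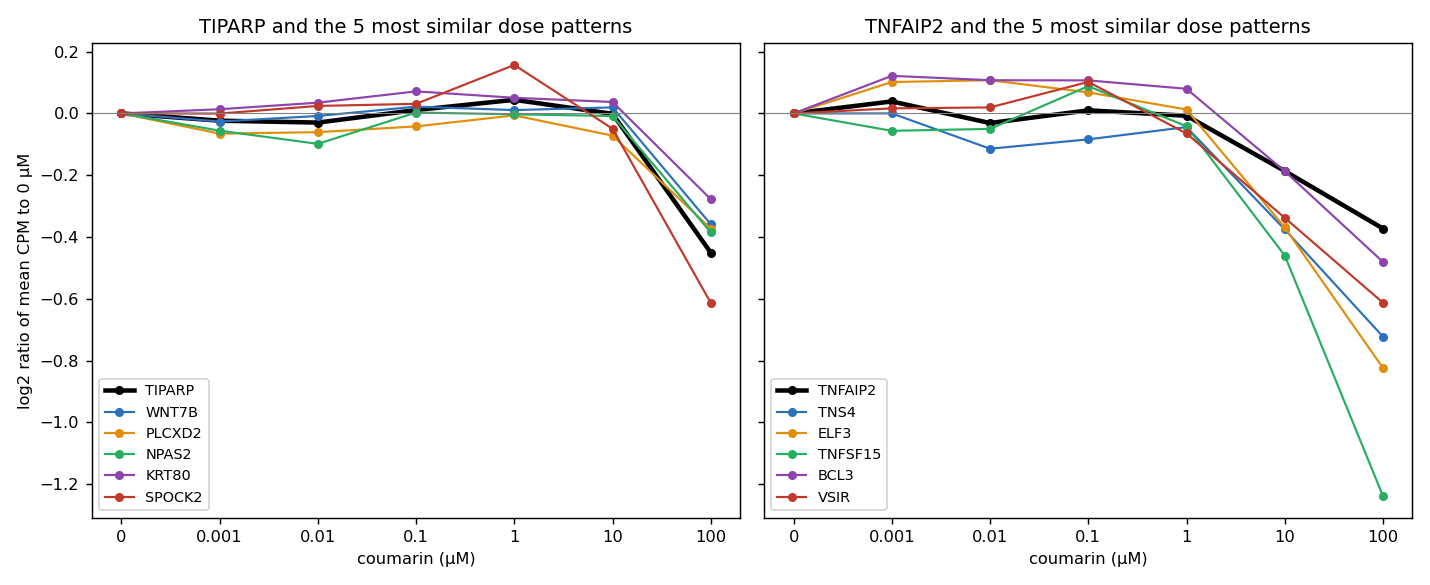
Log2 ratio of each dose's mean CPM to that at 0 µM (y axis) over coumarin dose (x axis, µM, low to high) for TIPARP (left) and TNFAIP2 (right), each in black with its 5 most similar genes in colour. The curves in the left panel stay near 0 up to 10 µM and drop at 100 µM, and those in the right panel are below 0 from 10 µM. The genes in colour were picked for this likeness.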

How the data were processed

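Per the labels' protocols, RNA was selected on poly(dT) beads and copied into cDNA with SmartScribe. The deposited counts are whole numbers per gene with no normalization. The deposited FPKM are the authors' values and match the counts over gene length and 1 constant per library (relative deviation up to 6.22e-08), which was 0.948 to 1.00 times the count total. HISAT2, DESeq2 and the build GRCh38 are named per the submitters' processing notes, which state no role here, and no source used here gives the counting tool or its use of strand. Spans of the 8 genes matched GENCODE v29.

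Libraries were grouped by title, 3 for each of 7 doses. Counts were filtered (filterByExpr), TMM-scaled and fitted in 1 robust quasi-likelihood model of 21 libraries with edgeR 4.0.16 in R 4.3.3 (14 residual degrees of freedom). In each of 9 comparisons the 16196 p-values had a Benjamini-Hochberg adjustment and a threshold of 0.05. The CPM printed carry the TMM scaling, a standard error is the log2 fold change over the root of F, and counting error alone is covered by the limit of 3 counts. The fit was also run on simulated data that gave all genes 1 common spread, set at the value estimated from these libraries. No result above rests on that run. Alternatives were DESeq2 size factors, DESeq2 1.42.0, limma 3.58.1 on log2 of FPKM plus 1 or 0.1, no filter, at least 1 CPM in 3 libraries, a gene-length offset, a replicate block, only the 6 libraries compared, and each library left out. Figures were drawn with matplotlib 3.10.9.

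The 8 genes and the other gene lists were chosen with earlier results of these data known. All 8 are named, and from each list up to 6 genes with the smallest p at 100 µM against 0 µM, with CYP1A2, NQO1, UGT1A6, ALDH1A3 and STC2 always. Of 75 other genes that this rule covers, 28 share exonic bases with another gene that had reads, mostly on the opposite strand, and their counts are uncertain to that extent.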

Additional observations from a re-analysis of the deposited data

How the results depend on the processing

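The falls of TIPARP, TNFAIP2 and AHRR at 100 µM against 0 µM were called under all 30 alternatives, and that of CYP1B1 under 29 of 30. The number of the 8 genes called ranged from 3 to 4 over single left-out libraries for 100 µM against 0 µM (4 with all libraries), 0 to 1 for 10 µM against 0 µM (1), 1 to 2 for 100 µM against 10 µM (2), 3 to 5 for 100 µM against the mean of 0.001 to 1 µM (5) and was 3 throughout for the slope (3). Where a left-out library leaves 2 in a group, the spread is shared with the other groups. For 10 µM against 0 µM, 0 of the 8 were called by limma at either pseudocount (17 and 27 genes in all) or in a fit of only the 6 libraries compared. For 100 µM against 10 µM, 1 was called by limma at either pseudocount. For 100 µM against the mean of 0.001 to 1 µM, limma at either pseudocount did not call ALDH3A1, nor did the filter of 1 CPM in 3 libraries. The cause was not tested. With the replicate number as a block, 4, 1, 2, 5 and 3 of the 8 were called in these comparisons, the same counts as without it, and same-numbered libraries did not deviate together (mean correlation -0.0022 over 63 pairs; 8 of 21 libraries correlated best with their own number). None of the 8 was called at 0.001 to 1 µM under any alternative. Of 57 values not called, 20 changed sign under at least 1 alternative, all with an absolute log2 value of at most 0.07, and the 15 called values kept their sign. CYP1A1 was not fitted under the filter of 1 CPM in 3 libraries.

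Over all genes, 1390 were called for 100 µM against 0 µM (699 without the first 100 µM library, 774 without the second untreated one, 798 without the first and 896 without the third 100 µM one), 52 for 10 µM against 0 µM (7 without 10 µM library 3, 9 without untreated 2, 82 without 0.001 µM library 3, 164 without 0.1 µM library 1, 155 by DESeq2, 302 with no filter), 734 for 100 µM against 10 µM (282 and 412 without 10 µM library 1 and 3, 292, 478 and 402 without 100 µM library 1, 2 and 3, 1168 in the 6 libraries alone), 1592 against the mean of low doses (838, 1002 and 948 without 100 µM library 1, 2 and 3) and 721 for the slope (472 without 0.001 µM library 2, 461 without 100 µM library 2). With no filter 10, 20, 5 and 2 genes were called at 0.001, 0.01, 0.1 and 1 µM. Depth limits CYP1A1 most, at 10 to 33 reads per library.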

Other observations

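TNFAIP2 is also known as a target of NF-κB and of retinoic acid, and lists of both kinds of target were described beside it. Of 13 tested NF-κB targets, 3 were called lower and none higher at 100 µM against 0 µM, where 4.82% of all genes tested were lower and 3.77% higher. Their median log2 fold change was -0.03 (0.00 over all genes). IER3, an early stress response gene, averaged 75.9 ± 5.26 CPM at 100 µM and 107 ± 6.08 CPM at 0 µM (SD, n = 3 each), with a log2 fold change of -0.50 (adjusted p = 1e-06). NFKBIA, which encodes the inhibitor that holds NF-κB in the cytosol, had -0.21 (adjusted p = 0.00386), and the inhibitor of apoptosis BIRC3 had -0.27 (adjusted p = 0.0236). At 10 µM none of the 13 was called, where 0.0803% of all genes were called lower and 0.321% in either direction.

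Of 7 tested retinoic acid targets, 3 were called lower and none higher at 100 µM against 0 µM, where 4.82% of all genes were lower and 3.77% higher. Their median log2 fold change was -0.32 (0.00 over all genes). DHRS3, which reduces retinal to retinol, averaged 29.5 ± 1.71 CPM at 100 µM and 42.5 ± 3.35 CPM at 0 µM (SD, n = 3 each). Its log2 fold change was -0.53 (adjusted p = 2.43e-07). It was the only one called at 10 µM, at -0.36 (adjusted p = 0.0035), where 0.0803% of all genes were called lower. At 100 µM STRA6, the cellular receptor for retinol-binding protein, had -0.39 (adjusted p = 0.00743) and the transglutaminase gene TGM2 -0.32 (adjusted p = 0.0272). TGM2 shares 394 exonic bases on the opposite strand with RPRD1B, which had 30480 reads against 5705 for TGM2. STRA6 shares 540 on the opposite strand with CCDC33, which had 287 reads against 11395 for STRA6. Among enzymes that make receptor ligands from tryptophan, 1 of 6 tested was called lower (KYNU, -0.16, adjusted p = 0.0138). Among relatives of TIPARP in the mono-ADP-ribosyl PARP family, 1 of 10 was (ZC3HAV1, -0.17, adjusted p = 0.0147), and neither of the 2 tested relatives of ALDH3A1 was. Over all genes 4.82% were called lower, 3.77% higher and 8.58% in either direction. Of 7 tested mesenchymal markers, 3 were called lower at 100 µM against 0 µM and none higher. These were PDGFRB, FAP and COL3A1, at -0.27, -0.51 and -0.11. The median of the 7 was -0.08 (0.00 over all genes). COL1A1 had 0.20 (adjusted p = 0.0539) and COL5A1 0.07 (adjusted p = 0.346), neither called. At 100 µM against the mean of 0.001 to 1 µM, 4 of the 7 mesenchymal markers were called lower (5.58% of all genes). Over the treated doses 1 of the 7 had a called negative slope (2.52% of all genes).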
